A study of Mus musculus with 12 samples.

Results

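This report asks where the difference between 2 classes of ethanol-drinking mice was unlike in 2 brain regions. The measure is an interaction: the difference between inflexible and light drinkers in the striatum minus the same difference in the prefrontal cortex, for each probe set of an expression array. All 12 of the 12 arrays of the series entered, 3 for each of 4 groups: light drinkers, prefrontal cortex; inflexible drinkers, prefrontal cortex; light drinkers, striatum; and inflexible drinkers, striatum. A negative interaction means that the class difference was higher in prefrontal cortex than in striatum, and a positive one the reverse.

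The mice were males of the Swiss stock, 6 weeks old at the start and 22 weeks old at the end, with no genetic change named in the labels. Every group had a choice of water, 5% ethanol and 10% ethanol. Ethanol was offered for 10 weeks, withheld for 2, offered again for 2 and then made bitter with 0.005 g/L quinine for 2, after which the free choice ran for 1 more week. Inflexible drinkers preferred ethanol in every phase, bitter or not, and light drinkers drank more water than ethanol. Mean blood ethanol per the labels was 113 ± 11.3 mg/dL for inflexible and 48 ± 13.3 mg/dL for light drinkers, without the kind of error. Mice that drank only water, and the study's heavy drinkers, are not analysed here, so each group had access to ethanol. The labels name 1 pool concentration per group, so the 3 arrays of a group may be repeat hybridisations of pooled RNA, and p-values then cover the spread between arrays and not between mice.

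The prefrontal cortex takes part in the control of goals and habits, and it sends excitatory fibres to the striatum. Most striatal neurons are medium spiny neurons, inhibitory cells that receive dopamine and are commonly divided by their D1 or D2 receptor. Immediate early genes are switched on within minutes of neuronal firing and are used as a record of recent activity. In RNA from whole tissue, fewer cells of a type and less RNA per cell cannot be told apart.

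All levels are the log2 values the authors deposited, with n = 3 arrays per group, and array values are given in the order of replicates 1, 2 and 3. Differences on this scale are given ± SE. The arrays spanned 2.76 to 11.56, and between 22.4% and 25% of probe sets per array lay above a log2 value of 4, a level used here to mark weak signals. Levels of different genes are not compared, because each probe set has its own response. The 18 spiked hybridisation controls separated 5 arrays with high controls (mean 8.36 or more) from 7 with low controls (7.06 or less). The high arrays were replicate 2 of both prefrontal groups, replicates 1 and 3 of inflexible striatum and replicate 1 of light striatum, and the labels do not say where this split came from.

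The tissue labels were set against cell type markers. Of 22 medium spiny neuron markers, 21 were higher in striatum than in prefrontal cortex among light drinkers (median 1.59) and 22 among inflexible drinkers (median 1.29). Of 19 cortical excitatory neuron markers, 6 and 4 were higher in striatum. The mean log2 value over the medium spiny neuron markers was 4.52 to 4.55 on the light prefrontal arrays and 5.09 to 5.14 on the inflexible ones, with no overlap. In striatum it was 5.92 to 6.05 in light and 6.35 to 6.47 in inflexible drinkers, again with no overlap. The mean over these markers was therefore higher in inflexible drinkers in both regions, though single members, such as Meis2 in prefrontal cortex, went the other way. The part of these markers in the gene results was not tested.

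The class difference was unlike in the regions for 141 of 45037 probe sets, 0.313% of those tested (limma, adjusted p under 0.05 after Benjamini-Hochberg adjustment over all of them), 89 negative (0.198%) and 52 positive (0.115%). Counting 1 probe set per gene, 80 of 18193 genes were called (0.44%), 50 negative (0.275%) and 30 positive (0.165%). The count of genes depended on single arrays. It was 45, 39, 40 and 28 without inflexible prefrontal replicates 1 and 3 and light prefrontal replicates 1 and 3. It was 46 and 41 without inflexible striatal replicates 1 and 3, and 45 without light striatal replicate 2 and 45 without replicate 3. With the control split as a block 242 genes were called, among them the 80. On the 7 low-control arrays alone 90 were called, 25 of them among the 80, and the direction was kept in 80 of 80. These 7 arrays are among those that chose the 80 genes, so the kept direction is no test.

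The groups followed 1 main order. In 50 of 50 genes with a negative interaction the light prefrontal mean was the lowest of the 4 groups, against 31.8% of all genes. The same held for 49 of the 50 on the low-control arrays and 48 on the high-control arrays. In 22 of 30 genes with a positive interaction it was the highest, against 27.9% of all genes. The class difference was the larger one in prefrontal cortex for 44 of the 50 and 22 of the 30, against 56.3% of all genes. It was itself called there in 44 (where 0.577% of all genes rose) and 22 (where 0.462% fell). In striatum it was called in 0 of the 50 and 4 of the 30, and the 4 were all the genes called in striatum (0.022%). The striatal count was 1 gene without inflexible prefrontal replicate 2, light prefrontal replicate 3, any 1 of the inflexible striatal arrays or light striatal replicate 3. It was 2 without inflexible prefrontal replicate 1 or light striatal replicate 1, 3 in 3 further cases and 6 without light prefrontal replicate 2. In all, 1.04% of genes and 0.826% of probe sets were called in prefrontal cortex, and 0.0111% of probe sets in striatum. The signs were opposite in 46 of the 50 and 25 of the 30, against 50.5% of all genes. Among the 50 the median class difference was 0.73 in prefrontal cortex and -0.21 in striatum, and among the 30 it was -0.45 and 0.14. In 50 of the 80 the inflexible prefrontal mean lay between light prefrontal cortex and both striatal groups, against 28.1% of all genes. Choosing genes by this contrast itself favours such orders, opposite signs and large differences in 1 region, so these counts describe the genes and are no test.

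**Figure D1:**
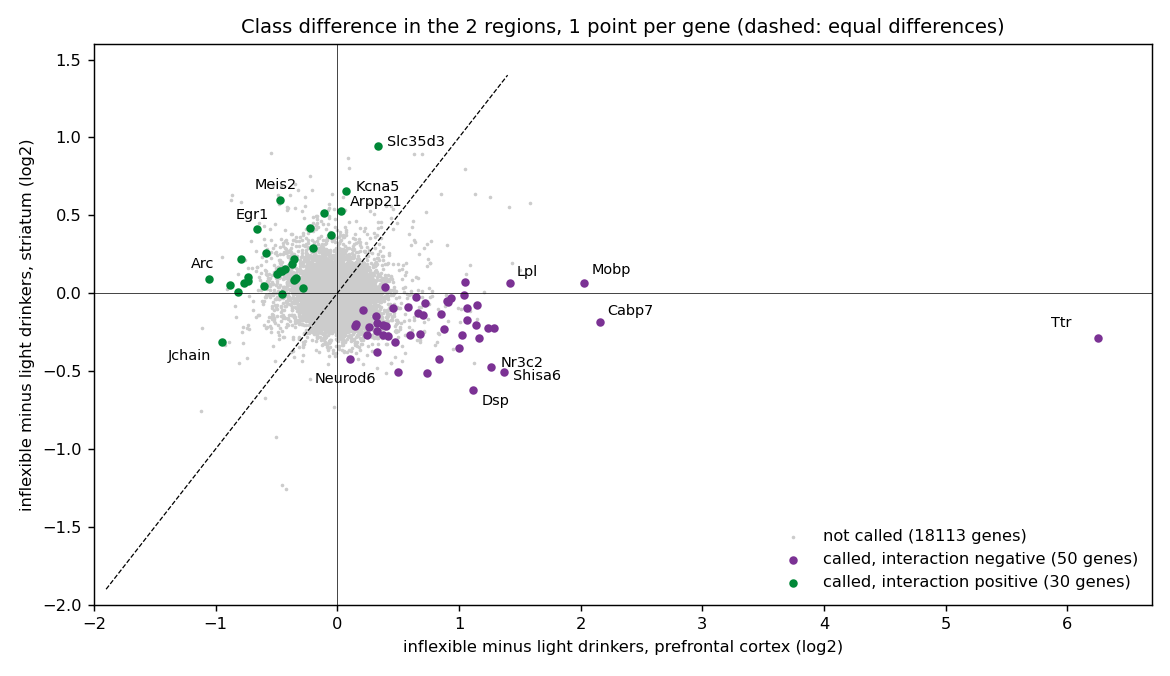
Class difference (inflexible minus light drinkers, log2) in prefrontal cortex on the horizontal axis and in striatum on the vertical axis, 1 point per gene, with the 80 called genes in colour. The 50 genes with a negative interaction lie below and to the right of the dashed line of equal differences, with Ttr at 6.25 in prefrontal cortex and -0.29 in striatum, and the 30 with a positive one lie above it.

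The largest interaction was that of Ttr, which encodes transthyretin, the carrier of thyroid hormone and retinol made in the brain by the choroid plexus. Ttr stood at 4.69, 4.36 and 4.55 on the light prefrontal arrays and at 11.04, 10.28 and 11.03 on the inflexible prefrontal arrays. In striatum it stood at 11.02, 11.48 and 11.48 in light and at 10.92, 11.37 and 10.85 in inflexible drinkers. Light prefrontal cortex alone was low, and the striatal classes overlapped. The interaction was -6.54 ± 0.32 (adjusted p = 6.8e-05 by limma, 95% interval -7.25 to -5.82), from a prefrontal rise of 6.25 ± 0.23 and a striatal difference of -0.29 ± 0.23. The 3 other Ttr probe sets gave -5.88, -6.18 and -6.47. It was called without each of the 12 arrays in turn, with values from -6.79 to -6.41.

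Other listed markers of the choroid plexus and the ependyma had small differences. Of 17 measured markers 1, Ttr, was called, 15 had a negative interaction, and the median was -0.25 against 0.00 over all genes tested. In 15 of the 17 every group mean was below log2 4. The mean over the list, Ttr included, was 3.13 to 3.16 in light and 3.62 to 3.74 in inflexible prefrontal cortex, and 3.85 to 3.92 and 3.84 to 3.96 in light and inflexible striatum. Ttr alone, with a prefrontal difference of 6.25, makes up much of the prefrontal gap in this mean. The median prefrontal difference over the list was 0.19. Otx2, a transcription factor of choroid plexus cells, stood at 2.87 in light and 3.07 in inflexible prefrontal cortex, and at 3.21 and 3.13 in light and inflexible striatum (interaction -0.28, adjusted p = 0.148). Folr1, the folate receptor of the choroid plexus, had means of 2.98, 3.17, 3.36 and 3.30 in the same order of groups. Kl, which encodes klotho, had 2.96, 3.37, 3.66 and 3.74. For Otx2, Folr1 and Kl, too, light prefrontal cortex was the lowest group. Ecrg4, made by the choroid plexus among other tissues, is not on the list. It was called, with an interaction of -1.35 ± 0.16 (adjusted p = 0.012 by limma). Its means were 3.47 in light and 4.47 in inflexible prefrontal cortex, and 4.93 and 4.58 in light and inflexible striatum. The part of choroid plexus RNA in the difference in Ttr was not tested.

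Genes known from the hippocampus and related old cortex held the most calls of any list. Of 16 measured members 8 were called, all negative, against 0.275% of all genes, and the median interaction was -0.68. This and the other gene lists were chosen with earlier results of these data known. Counts of called members therefore describe the lists and are no test. The mean log2 value over the list was 3.81 to 3.83 in light and 4.33 to 4.42 in inflexible prefrontal cortex, and 4.65 to 4.73 in light and 4.44 to 4.54 in inflexible striatum, so the classes did not overlap in either region and stood in opposite order. With the control split as a block 9 were called and in the low-control arrays 5. Without single arrays the number was 3 to 8. In light drinkers 14 of the 16 were higher in striatum than in prefrontal cortex (median 0.75), and in inflexible drinkers 8 were (median 0.02).

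Cabp7, a neuronal calcium-binding protein, stood at 3.69, 3.41 and 3.74 in light and 5.80, 5.71 and 5.81 in inflexible prefrontal cortex. In striatum it stood at 6.44, 6.52 and 6.63 in light and 6.44, 6.35 and 6.23 in inflexible drinkers, which overlap. The interaction was -2.35 ± 0.13 (adjusted p = 1.0e-04), and Cabp7 is also listed as a gene of neighbouring diencephalon. Nr3c2 encodes the mineralocorticoid receptor, a receptor for corticosterone that is abundant in the hippocampus. It stood at 3.97, 3.98 and 4.02 in light and 5.16, 5.31 and 5.30 in inflexible prefrontal cortex. In striatum it stood at 5.82, 5.65 and 5.85 in light and 5.16, 5.37 and 5.38 in inflexible drinkers, so the classes did not overlap in either region and the order was reversed. The interaction of Nr3c2 was -1.74 ± 0.10 (adjusted p = 1.4e-04), from 1.27 ± 0.07 in prefrontal cortex and -0.47 ± 0.07 in striatum, and the striatal difference was not called on its own (adjusted p = 0.163).

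Prox1, the homeobox factor that marks dentate granule cells, stood at 2.93, 3.06 and 2.92 in light and 3.58, 3.61 and 3.76 in inflexible prefrontal cortex. It stood at 4.04, 4.12 and 4.19 in light and 3.75, 3.76 and 4.04 in inflexible striatum. The prefrontal classes were well apart, while in striatum the highest inflexible and the lowest light array were both at 4.04. Its interaction was -0.94 ± 0.12 (adjusted p = 0.014), and was not called without light prefrontal replicate 3 (adjusted p = 0.051). The other called members were Zbtb20, a zinc finger factor of hippocampal development (-1.29 ± 0.21), Spink8, a protease inhibitor gene of hippocampal pyramidal cells (-1.10 ± 0.10), Npy2r, a neuropeptide Y receptor (-0.96 ± 0.12), and Fibcd1, a chitin-binding membrane protein (-0.62 ± 0.10). Dsp, described with the desmosomal genes, was the eighth. Zbtb20 kept its call only without light prefrontal replicate 2 or light striatal replicate 3 (adjusted p up to 0.137 otherwise). Fibcd1 kept it only without inflexible prefrontal replicate 2 or light striatal replicates 2 or 3 (up to 0.125), and Npy2r lost it without light prefrontal replicate 3 (0.051). Spink8 was called without each array in turn.

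**Figure D2:**
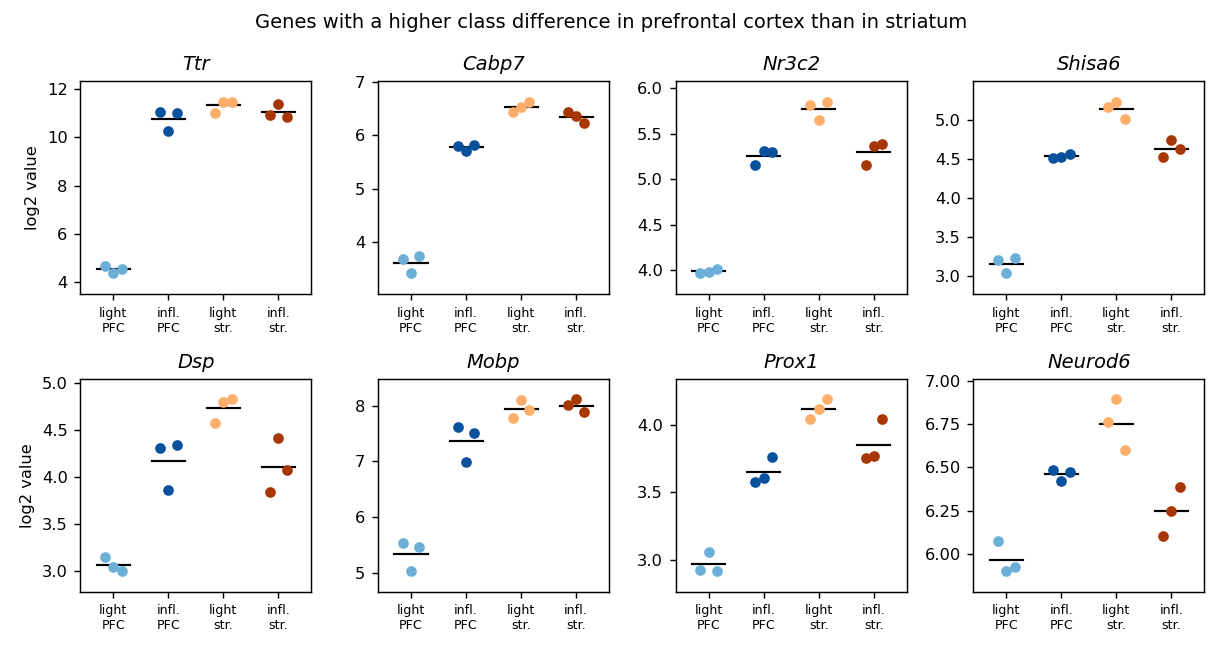
Log2 values of 8 genes with a negative interaction on the 12 arrays, 1 point per array and a bar at each group mean, for light and inflexible (infl.) drinkers in prefrontal cortex (PFC) and striatum (str.); each panel has its own axis. The light prefrontal arrays are the lowest group in all 8 panels, and in Nr3c2, Shisa6, Dsp and Neurod6 the inflexible striatal arrays lie below the light ones without overlap, while in Prox1 the nearest arrays of the classes meet at 4.04.

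Several neuronal and signalling genes outside that list had large negative interactions. Shisa6, an auxiliary protein of AMPA-type glutamate receptors, stood at 3.21, 3.04 and 3.24 in light and 4.52, 4.52 and 4.56 in inflexible prefrontal cortex. In striatum it stood at 5.16, 5.23 and 5.01 in light and 4.52, 4.74 and 4.62 in inflexible drinkers, with no overlap in either region. The interaction was -1.88 ± 0.10 (adjusted p = 1.0e-04), and Shisa6 was the only 1 of 33 glutamate receptor and transport genes called. Neurod6, a factor of excitatory neurons, stood at 6.08, 5.90 and 5.92 in light and 6.49, 6.42 and 6.47 in inflexible prefrontal cortex, and at 6.76, 6.89 and 6.60 in light and 6.11, 6.24 and 6.39 in inflexible striatum. The prefrontal rise of 0.50 ± 0.09 and the striatal difference of -0.51 ± 0.09 were of nearly the same size and opposite (interaction -1.0 ± 0.12, adjusted p = 0.013). On 1 probe set per gene, Neurod6 was the only 1 of 19 cortical excitatory neuron markers called, where the median was 0.14. Mef2c, also on that list and named here after its values were seen, had the opposite sign. Its brightest probe set had 0.91 ± 0.28 (adjusted p = 0.440), and another was called (0.76 ± 0.08, adjusted p = 0.0041). Iqgap2, a scaffold protein that binds actin, had a prefrontal rise of 0.74 ± 0.08 and a striatal difference of -0.51 ± 0.08 (interaction -1.25 ± 0.12, adjusted p = 0.0032). Gpr161, a receptor of the primary cilium, had 0.83 ± 0.12 and -0.42 ± 0.12 (interaction -1.26 ± 0.17, adjusted p = 0.020). Gpr161 was not called without inflexible prefrontal replicate 1, light prefrontal replicates 1 or 3, inflexible striatal replicate 3 or light striatal replicate 3 (0.0515 to 0.0673), and its interaction was -0.90 on the low-control arrays alone.

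In a further set the striatal classes overlapped or were close, and the prefrontal rise made up most of the interaction. Nrip3 had an interaction of -1.46 ± 0.18, and Ecrg4, a secreted precursor made by the choroid plexus among other tissues, one of -1.35 ± 0.16. Lpl encodes lipoprotein lipase, which frees fatty acids from lipoproteins. Lpl stood at 4.84, 5.19 and 4.82 in light and 6.38, 6.36 and 6.35 in inflexible prefrontal cortex, and at 7.02, 6.74 and 6.97 in light and 6.79, 6.97 and 7.17 in inflexible striatum (interaction -1.35 ± 0.17, adjusted p = 0.014). The striatal arrays of the classes were interleaved for Lpl.

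Of the desmosomal genes, Dsp and Pkp2 were among the 15 largest negative interactions. Desmosomes are spot-like junctions that tie cells together and anchor intermediate filaments. Dsp, which encodes desmoplakin and is also on the hippocampal list, stood at 3.15, 3.04 and 3.00 in light and 4.31, 3.87 and 4.34 in inflexible prefrontal cortex. In striatum Dsp stood at 4.57, 4.80 and 4.83 in light and 3.84, 4.41 and 4.08 in inflexible drinkers, so the order was reversed with no overlap in either region. Its interaction was -1.73 ± 0.23 (adjusted p = 0.015) and was not called without light prefrontal replicate 3 (0.0522), inflexible striatal replicate 3 (0.0516) or light striatal replicate 2 (0.0514). Pkp2, which encodes the desmosomal plaque protein plakophilin 2, stood at 3.70, 3.61 and 3.70 in light and 4.92, 4.71 and 4.82 in inflexible prefrontal cortex. In striatum Pkp2 stood at 4.75, 5.14 and 5.23 in light and 4.76, 4.99 and 4.74 in inflexible drinkers, which overlap (interaction -1.35 ± 0.17, adjusted p = 0.013). Of 12 desmosomal genes these 2 were called, against 0.275% of all genes, and the median of the list was -0.06. At a minimum fold of 1.5, 0 of the 12 were called by limma (4 of all genes). Pcdh20, a protocadherin that is on no list, had a prefrontal rise of 1.28 ± 0.10 and a striatal difference of -0.22 ± 0.10 (interaction -1.51 ± 0.15, adjusted p = 0.0036).

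Myelin genes had negative interactions in 18 of 20 measured members, with a median of -0.65, and 3 were called, against 8926 of 18193 genes negative and 0.275% called so. Mobp, a protein of compact myelin, stood at 5.53, 5.03 and 5.47 in light and 7.63, 6.98 and 7.50 in inflexible prefrontal cortex. In striatum it stood at 7.79, 8.11 and 7.92 in light and 8.01, 8.12 and 7.88 in inflexible drinkers. Light prefrontal cortex was the low group and the striatal classes overlapped (interaction -1.96 ± 0.25, adjusted p = 0.014). The call of Mobp was lost without inflexible prefrontal replicate 3 (0.0524) or inflexible striatal replicate 3 (0.0502). Tspan2, a tetraspanin of oligodendrocytes, had -0.96 ± 0.15, called without inflexible prefrontal replicates 1 or 2 and lost without any 1 of the other 10 arrays (adjusted p up to 0.12). Aspa, the enzyme that breaks down N-acetylaspartate in oligodendrocytes, had -0.70 ± 0.09, from 0.42 ± 0.06 in prefrontal cortex and -0.28 ± 0.06 in striatum. Mal, a myelin proteolipid, missed the threshold (-1.35 ± 0.23, adjusted p = 0.0504), and the brightest probe set of Mbp, the myelin basic protein gene, had -1.20 (adjusted p = 0.259). A further bright Mbp probe set, named after its values were seen, was called (-1.52 ± 0.19, adjusted p = 0.014). It was the only Mbp probe set called. Others that were bright had -1.55 ± 0.30 (limma adjusted p = 0.094), -1.46 ± 0.31 (adjusted p = 0.133) and -0.97 ± 0.37 (adjusted p = 0.730). Weaker ones had -1.06, -0.30 and 0.07.

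The myelin list moved with the prefrontal samples as a whole. Its mean log2 value was 4.28 to 4.38 in light and 4.93 to 4.97 in inflexible prefrontal cortex with no overlap, and 5.25 to 5.40 and 5.24 to 5.32 in light and inflexible striatum. With the control split as a block 7 members were called, the low-control arrays alone gave 5, and leaving out single arrays gave 1 to 3. Of 10 oligodendrocyte precursor markers 0 were called by limma at the adjusted threshold, with a median of 0.02, as were 0 of 16 astrocyte markers with a median of 0.01. Over all genes 0.44% were called, so 0 calls in lists this short says little. The mean over the medium spiny neuron markers was higher in the same inflexible prefrontal arrays (5.09 to 5.14 against 4.52 to 4.55). The part of these markers in the myelin difference was not tested.

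Markers of medium spiny neurons had calls in both directions. Of 22 measured members 3 were called, 1 negative and 2 positive, against 0.275% and 0.165% of all genes. The median interaction was -0.13, and the median class difference was 0.53 in prefrontal cortex and 0.39 in striatum. With the control split as a block 3 negative and 2 positive members were called. Without single arrays 1 to 2 negative and 0 to 2 positive members were. Bcl11b, a transcription factor of these neurons also known as Ctip2, stood at 6.07, 6.01 and 6.12 in light and 6.98, 7.10 and 7.25 in inflexible prefrontal cortex. In striatum it stood at 7.89, 7.86 and 7.91 in light and 7.81, 7.87 and 7.94 in inflexible drinkers, which overlap (interaction -1.06 ± 0.09, adjusted p = 0.0019). Penk, the enkephalin precursor, was higher in inflexible drinkers in both regions without overlap. Its differences were 1.58 ± 0.13 in prefrontal cortex and 0.58 ± 0.13 in striatum, and the interaction of -1.01 ± 0.18 did not pass (adjusted p = 0.070). Drd1, the D1 dopamine receptor, had -0.63 (adjusted p = 0.384) and Drd2, the D2 receptor, -0.19 (adjusted p = 0.999).

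The positive members of that list were Arpp21, which differed in striatum, and Meis2, which differed in opposite directions in the regions. Arpp21 encodes a phosphoprotein regulated by cAMP in dopamine-receiving neurons. It stood at 8.02, 7.85 and 7.84 in light and 7.96, 8.00 and 7.85 in inflexible prefrontal cortex, which overlap. In striatum Arpp21 stood at 8.65, 8.67 and 8.63 in light and 9.20, 9.18 and 9.15 in inflexible drinkers, a difference of 0.53 ± 0.05 (adjusted p = 0.024) and an interaction of 0.50 ± 0.08 (adjusted p = 0.033). Meis2, a homeobox factor of the developing striatum, stood at 6.55, 6.84 and 6.38 in light and 6.01, 6.15 and 6.18 in inflexible prefrontal cortex. In striatum Meis2 stood at 6.36, 6.22 and 6.20 in light and 6.82, 6.74 and 7.01 in inflexible drinkers, so the classes were in opposite order without overlap in both regions. Its interaction was 1.07 ± 0.16 (adjusted p = 0.030), with neither region called alone (0.134 in prefrontal cortex and 0.302 in striatum). Arpp21 kept its call only without inflexible prefrontal replicate 2 or light prefrontal replicates 1 or 2 (adjusted p up to 0.101 otherwise). Meis2 kept it only without light prefrontal replicates 2 or 3, inflexible striatal replicate 2 or light striatal replicate 1 (up to 0.0943).

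The other genes called in striatum were Slc35d3, Kazn and Kcna5. Slc35d3, a transporter-like protein known to affect D1 receptor trafficking, stood at 2.94, 2.96 and 2.97 in light and 3.19, 3.37 and 3.30 in inflexible prefrontal cortex. In striatum Slc35d3 stood at 4.13, 4.24 and 4.04 in light and 5.17, 5.12 and 4.95 in inflexible drinkers. It was higher in inflexible drinkers in both regions without overlap, by 0.33 ± 0.07 and 0.94 ± 0.07 (striatal adjusted p = 0.0025), and the interaction was 0.61 ± 0.10 (adjusted p = 0.038). Kazn, which encodes the junction-associated protein kazrin, differed by 0.52 ± 0.05 in striatum and -0.11 ± 0.05 in prefrontal cortex (interaction 0.63 ± 0.07, adjusted p = 0.012). Kcna5, a voltage-gated potassium channel named here after its values were seen, differed by 0.65 ± 0.07 in striatum and 0.08 ± 0.07 in prefrontal cortex (interaction 0.58 ± 0.09, adjusted p = 0.046). Rgs20, a regulator of G protein signalling, had a striatal difference of 0.42 ± 0.06 that was not called (adjusted p = 0.163) and an interaction of 0.64 ± 0.09 (adjusted p = 0.020). Slc35d3 kept its interaction call only without inflexible prefrontal replicate 2, inflexible striatal replicate 3 or light striatal replicate 2 (up to 0.121 otherwise). Rgs20 lost its call without any 1 of 6 arrays, namely inflexible prefrontal replicate 3, light prefrontal replicates 1 and 3, inflexible striatal replicate 1 and light striatal replicates 1 and 3 (0.0507 to 0.0615). Kazn was called without each array in turn.

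**Figure D3:**
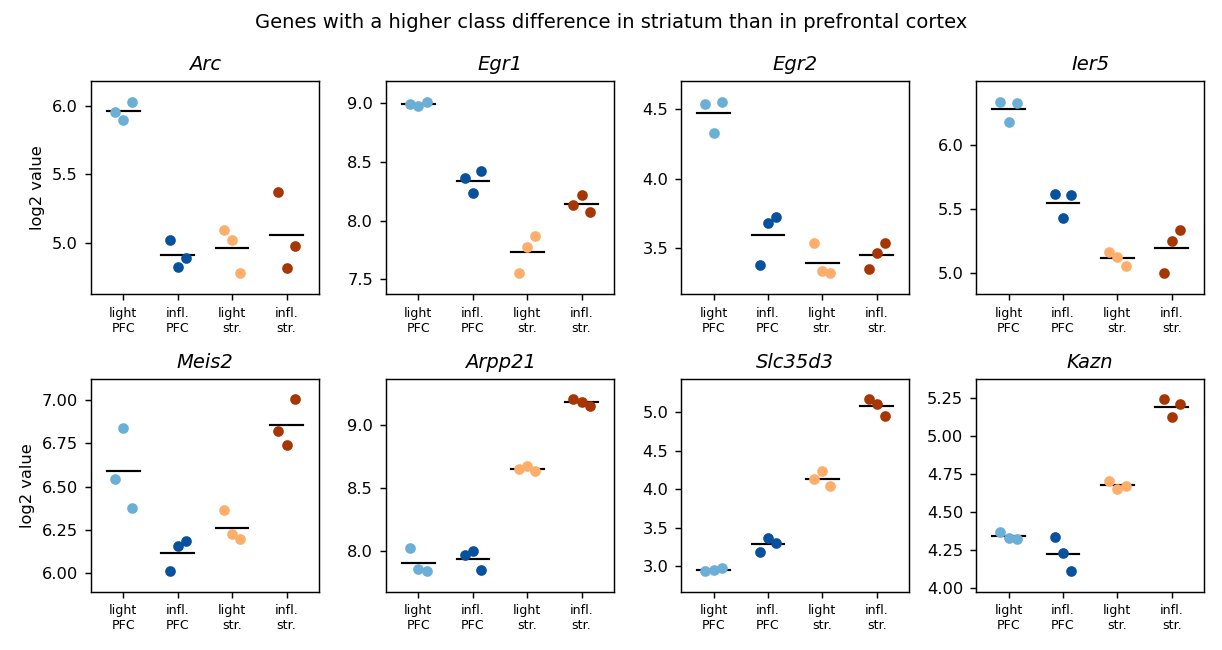
Log2 values of 8 genes with a positive interaction on the 12 arrays, drawn as for the negative genes. In the upper row (Arc, Egr1, Egr2, Ier5) the light prefrontal arrays are the highest, while in Arpp21, Slc35d3 and Kazn the inflexible striatal arrays are the highest and in Meis2 their mean is.

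Immediate early genes supplied 4 of the 15 largest positive interactions. Of 28 measured members 4 were called, all positive, against 0.165% of all genes, 22 had a positive interaction, and the median was 0.37. The mean log2 value over the list was 5.13 to 5.16 in light and 4.88 to 4.89 in inflexible prefrontal cortex, and 4.75 to 4.85 in light and 4.81 to 4.95 in inflexible striatum. The prefrontal classes did not overlap and the striatal classes did. With the control split as a block 6 were called. The low-control arrays gave 2 calls with a positive and 1 with a negative interaction, and without single arrays 1 to 3 were called. In the same inflexible prefrontal arrays the mean over the medium spiny neuron markers was higher (5.09 to 5.14 against 4.52 to 4.55). The part of this difference in the early genes was not tested.

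Of the 30 called genes with a positive interaction 22 had a RefSeq promoter window, and the others were not searched. Among the 22, the early gene Egr2, a zinc finger factor, was the only 1 whose windows held a CArG box, the site of serum response factor. Windows of 250 bases before to 50 bases after a start site were searched on both strands for this box and for the full cAMP response element, TGACGTCA. Of the Egr2 windows, listed for different start sites, these are shown because each holds a different box. Both are on the plus strand of GRCm38.p6, at chr10:67537316-67537615 and chr10:67537619-67537918, and capitals mark the box.
Egr2 window 1: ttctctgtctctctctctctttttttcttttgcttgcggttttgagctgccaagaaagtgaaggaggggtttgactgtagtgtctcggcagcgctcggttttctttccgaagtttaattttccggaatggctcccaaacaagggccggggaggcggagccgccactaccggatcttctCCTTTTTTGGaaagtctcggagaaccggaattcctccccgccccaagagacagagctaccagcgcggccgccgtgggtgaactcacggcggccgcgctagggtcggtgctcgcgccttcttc
Egr2 window 2: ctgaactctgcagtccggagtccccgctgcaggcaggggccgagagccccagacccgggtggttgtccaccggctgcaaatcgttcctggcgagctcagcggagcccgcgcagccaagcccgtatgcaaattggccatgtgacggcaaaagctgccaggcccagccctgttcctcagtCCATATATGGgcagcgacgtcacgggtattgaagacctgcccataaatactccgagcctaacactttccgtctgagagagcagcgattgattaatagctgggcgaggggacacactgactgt
In each window the box begins 72 bases before that start site, and the box of window 2 also lies 73 and 133 bases before other listed start sites. Among called genes with a window, 1 of 22 with a positive and 2 of 37 with a negative interaction (Aspa and Rnf128) held a CArG box, against 229 of 14452 genes tested (1.58%). The cAMP response element was in 0 of 22 and 0 of 37, against 422 of 14452 (2.92%). Over all 32851 windows the shares were 1.63% and 1.79%. A match in these letters is not a measured binding site.

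Arc encodes a protein of active synapses that takes part in the removal of AMPA receptors. Arc stood at 5.96, 5.90 and 6.03 in light and 5.02, 4.82 and 4.89 in inflexible prefrontal cortex. In striatum Arc stood at 5.09, 5.02 and 4.78 in light and 5.37, 4.82 and 4.98 in inflexible drinkers, which overlap. Light prefrontal cortex was the high group, and the other 3 groups lay near 5. The interaction was 1.14 ± 0.19 (adjusted p = 0.046), from a prefrontal fall of 1.05 (SE 0.13) and a striatal difference of 0.09 ± 0.13. Arc kept its call only without inflexible striatal replicates 1 or 2 (adjusted p up to 0.139 otherwise, values 0.99 to 1.26).

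Egr1, a zinc finger factor induced by activity, stood at 9.00, 8.98 and 9.01 in light and 8.36, 8.23 and 8.42 in inflexible prefrontal cortex. In striatum Egr1 stood at 7.55, 7.77 and 7.87 in light and 8.13, 8.22 and 8.07 in inflexible drinkers. The classes did not overlap in either region and stood in opposite order, with -0.66 ± 0.08 in prefrontal cortex (adjusted p = 0.0046) and 0.41 ± 0.08 in striatum (adjusted p = 0.317). The interaction of Egr1 was 1.07 ± 0.11 (adjusted p = 0.0052), and the call held whichever single array was left out and also in the 7 low-control arrays (1.01). Egr2 stood at 4.54, 4.33 and 4.56 in light and 3.38, 3.68 and 3.72 in inflexible prefrontal cortex, and at 3.53, 3.33 and 3.31 in light and 3.35, 3.46 and 3.53 in inflexible striatum. Its interaction was 0.94 ± 0.15 (adjusted p = 0.036). Ier5, another early response gene, stood at 6.34, 6.18 and 6.33 in light and 5.61, 5.43 and 5.61 in inflexible prefrontal cortex, and at 5.16, 5.12 and 5.06 in light and 5.00, 5.25 and 5.34 in inflexible striatum (interaction 0.81 ± 0.12, adjusted p = 0.033). For Egr2 and Ier5 light prefrontal cortex was high and the striatal classes overlapped. Egr2 kept its call only without inflexible prefrontal replicate 1, light prefrontal replicate 2 or light striatal replicate 1 (up to 0.121 otherwise). Ier5 kept it only without light prefrontal replicate 2 or inflexible striatal replicate 1 (up to 0.113).

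The other 24 early genes were not called on their brightest probe sets. Nptx2, a secreted pentraxin that gathers AMPA receptors, had the largest value, 1.47 ± 0.26 (adjusted p = 0.062), with opposite order and no overlap in both regions (-0.87 ± 0.18 in prefrontal cortex and 0.60 ± 0.18 in striatum). Fos had 0.55, Egr3 0.87, Nr4a1 0.57 and Npas4 0.44. The members with a negative interaction included Bdnf, a neurotrophin gene (-0.60), Nr4a2 (-0.56), Nr4a3 (-0.51) and Jun (-0.44). The brightest probe set of Homer1 had 0.34. Another of its 6 probe sets, singled out after its values were seen, stood at 6.82, 7.2 and 6.77 in light and 5.68, 5.79 and 5.57 in inflexible prefrontal cortex. In striatum that Homer1 probe set stood at 5.39, 5.03 and 5.06 in light and 5.69, 5.81 and 6.14 in inflexible drinkers. The classes were reversed between regions without overlap, and that probe set was called (interaction 1.97 ± 0.21, adjusted p = 0.0067 by limma). Which transcripts each of the Homer1 probe sets reads is not given with the data.

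Further positive interactions came from genes with high values in light prefrontal cortex. Pitpnm3, of the phosphatidylinositol transfer protein family, stood at 5.44, 5.19 and 5.36 in light and 4.51, 4.56 and 4.54 in inflexible prefrontal cortex, and at 4.08, 4.39 and 4.17 in light and 4.57, 4.33 and 4.40 in inflexible striatum (interaction 1.01 ± 0.13, adjusted p = 0.014). Ptgfrn, a membrane protein of the immunoglobulin superfamily, had -0.58 ± 0.07 in prefrontal cortex and 0.26 ± 0.07 in striatum, without overlap in either (interaction 0.84 ± 0.09, adjusted p = 0.0086). Sowahb had 0.83 ± 0.11 and Pdzrn3, a ubiquitin ligase, 0.83 ± 0.11. Cbln2, a secreted organiser of synapses, had 0.65 ± 0.09, and Wwc1, which encodes the memory-linked protein KIBRA, 0.62 ± 0.10. Jchain, the joining chain of immunoglobulins, was lower in inflexible drinkers in both regions without overlap, by -0.95 ± 0.07 and -0.32 ± 0.07 (interaction 0.63 ± 0.09). Pitpnm3 was not called without light prefrontal replicate 3 (0.0516). Pdzrn3 was not without inflexible prefrontal replicate 1, light prefrontal replicate 3, inflexible striatal replicate 1 or light striatal replicates 1 or 2 (0.0522 to 0.0622). Cbln2 lost its call without any 1 of 6 arrays, namely inflexible prefrontal replicates 1 and 3, light prefrontal replicates 1 and 3, inflexible striatal replicate 1 and light striatal replicate 3 (up to 0.0672). Wwc1 kept its call only without inflexible striatal replicate 2 or light striatal replicate 1 (up to 0.132 otherwise), and Jchain only without light prefrontal replicates 2 or 3 or light striatal replicate 3 (up to 0.0978).

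Olfactory bulb and migrating neuroblast markers leaned the same way, with 15 of 16 positive, a median of 0.26 and 2 called, against 9267 of 18193 genes positive and 0.165% called so. Gng4, a G protein gamma subunit, stood at 6.35, 6.26 and 6.36 in light and 5.66, 5.43 and 5.59 in inflexible prefrontal cortex, and at 4.67, 4.48 and 4.73 in light and 4.66, 4.86 and 4.55 in inflexible striatum (interaction 0.83 ± 0.13, adjusted p = 0.037). Dlx1, a homeobox factor of inhibitory neurons, had 0.44 ± 0.06 (adjusted p = 0.021) and was also the only 1 of 22 interneuron markers called, where 17 were positive and the median was 0.26. The mean over the olfactory list was 4.39 to 4.42 in light and 4.04 to 4.13 in inflexible prefrontal cortex without overlap, and 3.99 to 4.09 and 4.01 to 4.10 in light and inflexible striatum. Gng4 kept its call only without inflexible striatal replicate 3 (adjusted p up to 0.121 otherwise), and Dlx1 lost it without any 1 of 6 arrays (up to 0.067), namely inflexible prefrontal replicate 3, light prefrontal replicates 1 and 3, inflexible striatal replicates 1 and 3 and light striatal replicate 3. With the control split as a block 4 members of the olfactory list were called. With only the low-control arrays or with the intensity trend 0 were called by limma at the adjusted threshold, where 90 and 49 of all genes were. With all arrays 1289 of all genes had an unadjusted p under 0.05.

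**Figure D4:**
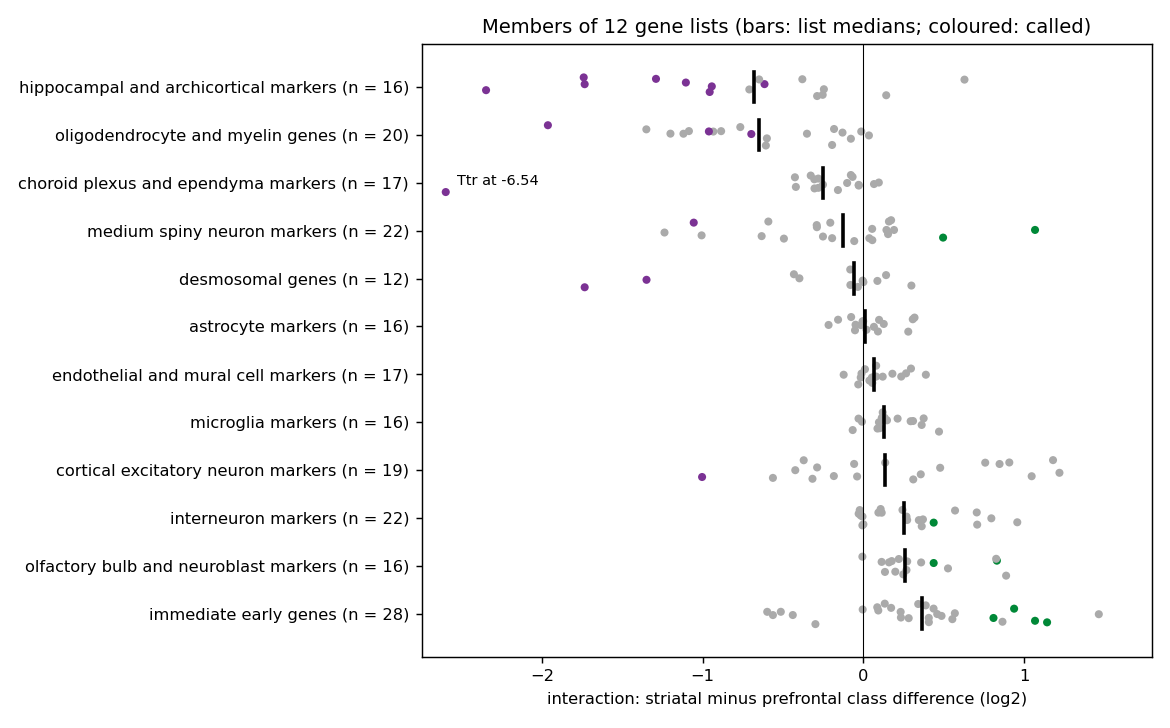
Interaction (log2) of the measured members of 12 gene lists, 1 point per gene, with called genes in colour and a bar at each list's median; Ttr, at -6.54, is drawn at the left edge. Medians run from -0.68 for hippocampal and archicortical markers to 0.37 for immediate early genes, and astrocyte markers centre at 0.01.

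The remaining lists had at most 1 called member each. Dcn, the matrix proteoglycan decorin, was the only 1 of 15 meningeal and fibroblast markers called (-0.53 ± 0.09, adjusted p = 0.045, and called without a single array only where that was inflexible prefrontal replicate 2). Its sign is not that of most of the list, where 11 of 15 were positive and the median was 0.14. The mean over the list was lower in inflexible drinkers without overlap in both regions, at 4.10 to 4.18 in light and 3.80 to 3.90 in inflexible prefrontal cortex and 3.81 to 3.86 and 3.67 to 3.68 in light and inflexible striatum. Il1r1, the interleukin-1 receptor, was the only 1 of 18 toll-like receptor and cytokine genes called (-0.47 ± 0.07, adjusted p = 0.031), and kept its call only without inflexible prefrontal replicate 1 or light prefrontal replicates 1 or 2 (up to 0.101 otherwise). Microglia (16 genes), endothelial and mural cells (17), GABA genes (16), endocannabinoid genes (10), ethanol and acetaldehyde metabolism (15), heat shock genes (27), interferon-stimulated genes (20) and clock genes (20) had 0 called by limma at the adjusted threshold. Of all 18193 genes 80 were called (0.44%), so 0 calls in lists this short says little, and 1289 had an unadjusted p under 0.05. The medians of these lists lay between -0.10 (endocannabinoid) and 0.14 (heat shock). Of 49 oxidative phosphorylation subunits 39 were negative and 0 called, with a median of -0.15 that ran from -0.36 to -0.02 as single arrays were left out. Cytosolic ribosomal protein genes (40) had a median of 0.00.

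Genes studied before in this mouse model were followed in any case, and on their brightest probe sets those other than Ttr, Pkp2 and Arc did not pass. Lrrk2, whose kinase is mutated in some inherited Parkinson disease, had an interaction of 0.25 ± 0.14 (95% interval -0.07 to 0.56). Camk2a, a subunit of the calcium-dependent kinase CaMKII, had 0.02 ± 0.27 (-0.59 to 0.63). Gabbr1, a subunit of the GABA-B receptor, had -0.02 ± 0.23 (-0.53 to 0.50), and each of these 3 had an adjusted p of 0.999. Camk2n1, an inhibitor of CaMKII, had 0.35 ± 0.11 (adjusted p = 0.499) on its bright probe set. A dim Camk2n1 probe set, chosen after its values were seen, stood at 5.57, 5.14 and 5.67 in light prefrontal cortex and between 3.34 and 3.58 on the other 9 arrays (interaction 2.07 ± 0.16, adjusted p = 0.0010). The 2 probe sets of this gene thus fell on either side of the threshold.

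Other probe sets of the called genes were read as a check on the choice of 1 per gene. Of the 80 genes 57 had others, and 20 had others with a mean above log2 4. All 42 of those probe sets had an interaction of the same sign and 11 were called, against 72.5% of the same sign among 3174 such probe sets of all genes. Probe sets of 1 gene share RNA and arrays, so this covers the probes and not the samples. The 80 were chosen for a large interaction, which itself favours equal signs, so the gap to 72.5% is no test. Taking the mean over all probe sets of a gene, dim ones included, brought 19 of the 43 named called genes closer to 0 by more than 1.5 times. The negative ones became -1.18 for Cabp7, -0.88 for Mobp, -1.17 for Shisa6, -1.06 for Dsp, -0.96 for Nrip3, -0.64 for Pkp2, -0.71 for Ecrg4, -0.64 for Gpr161, -0.37 for Prox1, -0.26 for Dcn and -0.22 for Il1r1. The positive ones became 0.27 for Pitpnm3, 0.41 for Ptgfrn, 0.51 for Gng4, 0.41 for Pdzrn3, 0.34 for Ier5, 0.30 for Rgs20, 0.24 for Kazn and 0.33 for Wwc1. Of the 19, Dcn, Il1r1 and Rgs20 were then not called (adjusted p = 0.122, 0.175 and 0.297). On the high-control arrays alone Egr2 was 0.56 and Dcn -0.35.

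**Figure D5:**
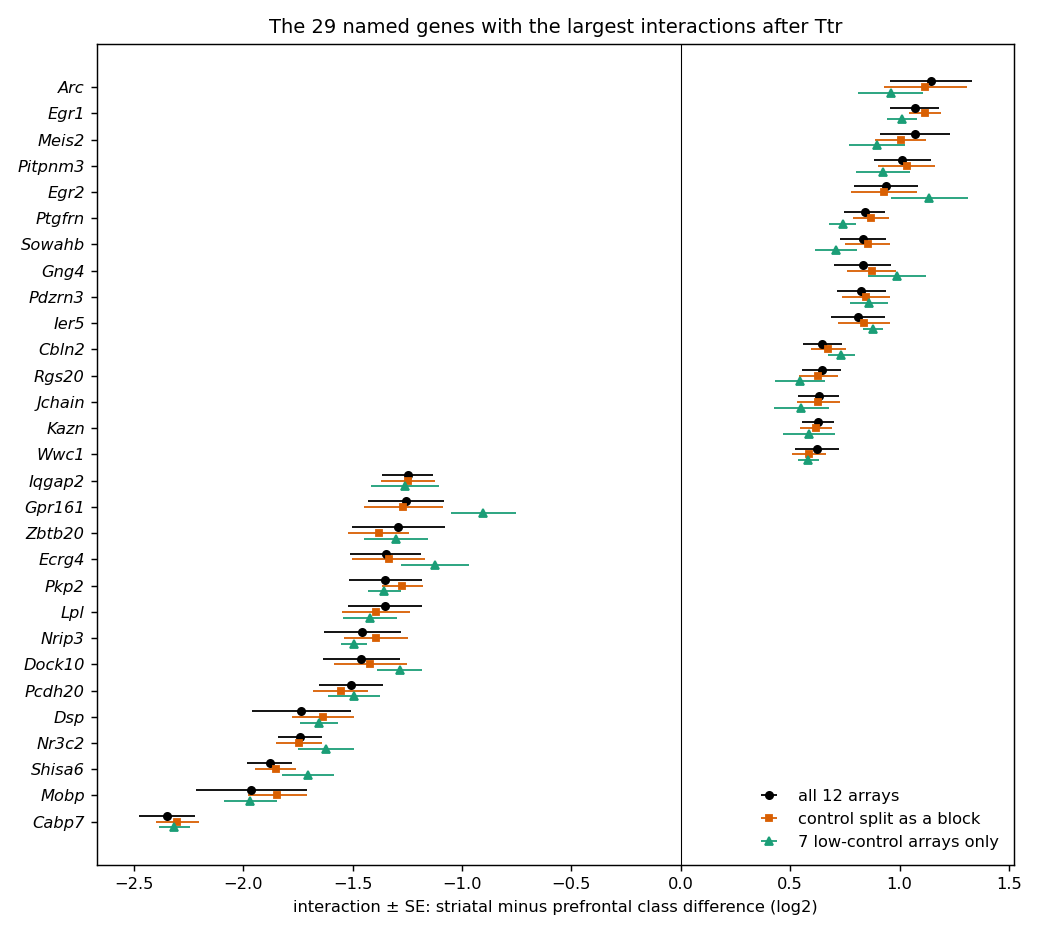
Interaction ± SE (log2) of the 29 named genes with the largest interactions after Ttr, from all 12 arrays (circles), with the control split as a block (squares) and from the 7 low-control arrays alone (triangles). Each of the 29 keeps its direction in all 3 fits, which share arrays, and the value moves most for Gpr161 among the negative genes, from -1.26 to -0.90.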

How the data were processed

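Affymetrix mouse expression arrays measured total RNA of whole striatum and prefrontal cortex, 1 array per sample. Per the submitters' processing notes the authors used RMA and the affy package (versions not given), and the deposited values are log2 signals, the base being read from the values. RMA draws low signals together, so differences of dim genes are understated. Depth has no meaning for arrays, whose number (3 per group) limits the precision: the median SE of the interaction was 0.076 over all probe sets and 0.192 above log2 4.

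Of 45101 probe sets 64 controls were left out. One model with 4 group means (8 residual degrees of freedom) was fitted in limma 3.58.1 (R 4.3.3), with Benjamini-Hochberg adjustment over 45037 probe sets and calls at an adjusted p under 0.05. Names came from the platform table: 34945 probe sets had 1 symbol, 932 several and 9160 none, and 34741 of the former matched RefSeq. The probe set with the highest mean stood for each of 18193 genes. The fit was tested on simulated data. Tables and plots used Python 3.11.15.

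Named genes were the 15 largest called interactions each way (predicted and clone-named models counted, not named), up to 4 members per list with the smallest p, the 6 largest with opposite differences in both regions, and 7 followed genes. Folr1, Kl, Mbp, Mef2c, Drd2, Kcna5, the uncalled early genes other than Nptx2, and further members called in a list were added as values. The members and lists were chosen with earlier results of these data known. Whether replicate numbers pair the arrays was not settled, so no block entered the main fit. Alternatives were another normalisation, centring, filters, variance settings, the control split and leaving out each array.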

Additional observations from a re-analysis of the deposited data

Results flagged for a closer look

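The class difference differed between the regions, by the limma test of that difference, for 141 probe sets. The 15 named genes with the largest negative values were Ttr (-6.54), Cabp7 (-2.35), Mobp (-1.96), Shisa6 (-1.88), Nr3c2 (-1.74), Dsp (-1.73), Pcdh20 (-1.51), Dock10 (-1.46), Nrip3 (-1.46), Lpl (-1.35), Pkp2 (-1.35), Ecrg4 (-1.35), Zbtb20 (-1.29), Gpr161 (-1.26) and Iqgap2 (-1.25). The 15 with the largest positive values were Arc (1.14), Egr1 (1.07), Meis2 (1.07), Pitpnm3 (1.01), Egr2 (0.94), Ptgfrn (0.84), Sowahb (0.83), Gng4 (0.83), Pdzrn3 (0.83), Ier5 (0.81), Cbln2 (0.65), Rgs20 (0.64), Jchain (0.63), Kazn (0.63) and Wwc1 (0.62). With 3 arrays per group no single array was tested as standing apart.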

How the results depend on the processing

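The direction of the 80 called genes was the same in every alternative that gave them a value (70 of them under the filter on low values), while their number was not. Every alternative drew on the arrays that had chosen these genes, so the kept direction is no test. Against 80 genes and 141 probe sets, the replicate block gave 24 and 51, the control split as a block 242 and 443, array weights 428 and 800, and a minimum fold of 1.5 gave 4 and 8; an intensity trend gave 49 genes. The 5 high-control arrays, with 1 residual degree of freedom, gave 0 and 0 (1625 genes at an unadjusted p under 0.05 by limma). Leaving out single arrays gave 28 to 87 genes and 62 to 161 probe sets. For the prefrontal difference, 372 probe sets in the main analysis, the replicate block gave 206, the control split block 1119, the low-control arrays 1243, the high-control arrays 0 (4049 unadjusted), array weights 2955, the minimum fold 13 and single arrays left out 157 to 394. For striatum, 5 probe sets, the control split block gave 34, centring 11, the filter 3, the low-control arrays 0 (4056 unadjusted), the high-control arrays 0 (2783 unadjusted), the minimum fold 0 (7 at an unadjusted p under 0.05) and single arrays left out 2 to 9. Values near 0 changed sign: Lrrk2 was -0.064 on the high-control arrays. Camk2a was -0.16 on the low-control arrays, -0.010 with quantile normalisation, -0.042 with array weights and -0.14 to 0.19 without single arrays. Gabbr1 was 0.076 with the control split block, 0.027 on the low-control and 0.030 on the high-control arrays, 0.11 as the mean of its probe sets and -0.13 to 0.13 without single arrays. The causes were not tested. Same-numbered arrays deviated together in 7 of 18 pairs (correlation over 0.1, median -0.3), and arrays of other numbers in 20 of 36 (median 0.25). The control split often differs between arrays of the same number, so this check cannot decide whether the numbers pair arrays. The replicate block, with which 0 of 12 desmosomal and 0 of 16 olfactory genes were called by limma, rests on a shared number only. Counts of list members by setting, and the order of the groups within the control split, were chosen after seeing the data.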

Other observations

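Some called genes outside the lists, chosen after their values were seen, had interactions about as precise as those described. Glo1, which encodes glyoxalase 1, an enzyme that clears methylglyoxal, had an interaction of -0.99 ± 0.08 (limma adjusted p = 0.0010), from a prefrontal difference of 0.86 and a striatal one of -0.13. Tgfb2, a growth factor of the TGF-beta family, had -1.22 ± 0.12 (adjusted p = 0.0046), and Epha7, an ephrin receptor of axon guidance, had -1.16 ± 0.15 (adjusted p = 0.014). Among positive interactions, Midn, which encodes midnolin, had 0.61 (adjusted p = 0.0067), and Inhba, which encodes an activin subunit, had 0.49.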
